A study of Mus musculus with 24 samples.

Results

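The AP-1 transcription factor genes of mouse liver were followed through a course of acetaminophen (APAP) overdose and in livers that lack the cell cycle repressors E2f7 and E2f8. The genes were chosen by symbol, and all 10 of them (Fos, Fosb, Fosl1, Fosl2, Jun, Junb, Jund, Atf3, Maff and Mafk) were found among the 24411 genes counted in each of 24 RNA-seq libraries of whole liver. In the LKO cohort, mice of a mixed, mostly FVB background carried floxed E2f7 and E2f8 and the R26R mTmG reporter, LKO mice carried in addition Alb-Cre, which acts in albumin-expressing liver cells, and control littermates lacked Cre. In the HKO cohort, floxed mice received AAV8-TBG-Cre, in which the TBG promoter limits Cre to hepatocytes, at the age of 2 months (HKO), or AAV8-TBG-Null (AAV control). All mice were male, 2.5 months old and were fasted for about 16 h. At 0 h, without APAP, 1 library was made per mouse, from 4 control, 4 LKO, 3 AAV control and 3 HKO mice. At 12, 24, 48, 72 and 96 h after 300 mg/kg APAP, only the LKO cohort was sampled, as 1 library per genotype and time from the pooled RNA of 3 mice. The spread between mice after APAP is therefore not measured, and values at a single time have no replicate check.

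AP-1 is a family of dimeric transcription factors with a basic region and a leucine zipper. Fos proteins do not pair with each other and bind DNA as heterodimers with Jun proteins, whereas Jun proteins can also pair among themselves. Several of the genes are immediate-early genes, transcribed within minutes of growth factor, cytokine or stress signals, and the kinase JNK, which is active in APAP injury, phosphorylates Jun and raises its activity. Atf3 is a stress-induced partner of Jun proteins that can repress transcription, and Maff and Mafk are small Maf proteins, which lack an activation domain and pair with Nrf2, Bach proteins or one another at antioxidant response elements.

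To show what these genes carry next to their starts, the last 170 bases before the transcription start of 4 genes that the results turn on are printed 5′ to 3′, from the RefSeq promoter table on GRCm38.p6. Fos is at chr12:85473720-85473889 (+), Jun at chr4:95052223-95052392 (−), Atf3 at chr1:191183334-191183503 (−) and Maff, at the second of its 3 annotated starts, at chr15:79347350-79347519 (+). Capitals mark TGACGTCA, TGACNTCA, TTACNTCA or TGACG on either strand.
Fos: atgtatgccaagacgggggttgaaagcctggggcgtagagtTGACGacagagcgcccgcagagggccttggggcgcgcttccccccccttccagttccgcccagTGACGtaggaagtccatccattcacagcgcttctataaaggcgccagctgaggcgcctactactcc
Jun: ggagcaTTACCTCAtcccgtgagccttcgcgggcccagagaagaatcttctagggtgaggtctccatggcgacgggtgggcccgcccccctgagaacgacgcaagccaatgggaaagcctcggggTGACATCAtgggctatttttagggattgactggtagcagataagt
Atf3: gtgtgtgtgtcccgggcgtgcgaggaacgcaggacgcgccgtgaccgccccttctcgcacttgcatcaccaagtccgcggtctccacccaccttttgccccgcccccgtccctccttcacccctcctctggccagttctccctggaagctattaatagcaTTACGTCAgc
Maff: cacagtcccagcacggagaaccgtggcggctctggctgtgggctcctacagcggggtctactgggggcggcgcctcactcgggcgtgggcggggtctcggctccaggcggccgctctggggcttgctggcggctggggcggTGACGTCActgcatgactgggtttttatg

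Jun and the printed Maff start held the 8-base form TGACNTCA, of which the Maff copy was TGACGTCA. Atf3 held TTACGTCA, which ended 3 bases before the start, and Jun held a further copy of TTACNTCA. Fos held only the shorter TGACG, at 2 places. Over all 32851 promoter windows of 250 bases in the table, 7.49% held TGACNTCA, 1.55% TGACGTCA, which also counts as TGACNTCA, and 2.86% TTACNTCA. Of the 11 windows that belong to the 9 genes with an entry, 3 were of Maff. TGACNTCA was held by 3 of the 11, all of Jun or Maff, and TTACNTCA by 2. The 5-base TGACG, which lies within TGACGTCA, was found in 7 of these 11 windows and in 17.8% of all windows. None of the 11 windows held TGANTCA (6.75% of all windows) or a CArG box (1.47%). Bases further than 250 before a start were not searched. Fosl1 had no entry. These matches describe letters, not bound sites.

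Reads on genes numbered from 12665686 to 19499897 per library, so that 3 reads corresponded to 0.144 to 0.253 CPM (counts scaled by library size and TMM factor). Hepatocyte markers such as Alb were high in every group, but Ass1 had at most 0.26 CPM in any group mean. The cause of this low count was not tested. E2f8 was not lower in the libraries labelled LKO or HKO: at 0 h it had 11.8 to 18.9 CPM in control and 18.0 to 34.1 CPM in LKO, and 14.8 to 26.3 CPM in AAV control and 30.6 to 83.4 CPM in HKO. Those counts include exons outside the deleted part, so they do not check the genotype, and directions follow the labels. E2f7 had at most 22 reads in any library at 0 h. The control pool at 12 h stood apart, since 13.6% of its reads fell on no feature against at most 10.9% in the rest of the LKO cohort, and the counts at 12 h and between the genotypes are also given without it or without its time point.

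Positions of the genes are those of RefSeq on GRCm38.p6. Levels at 0 h in untreated control livers, taken per kilobase of exon sequence, allow the genes to be ordered. Jund was highest, with 122 ± 19.0 CPM per kb (SD, n = 4 control mice), followed by Junb with 44.2 ± 12.8 and Jun with 23.5 ± 8.21. Maff had 11.7 ± 2.46, Fos 6.64 ± 3.42, Mafk 6.19 ± 0.93, Atf3 1.89 ± 1.30, Fosl2 1.38 ± 0.44 and Fosb 0.20 ± 0.16 CPM per kb. Fosl1 had no read in any of the 4 control mice. Jund lay above every other gene in each mouse, while Junb and Jun, Maff and Fos, Fos and Mafk, and Atf3 and Fosl2 were neighbours that overlapped between mice.

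At 12 h after APAP, all 10 genes were higher than at 0 h. This comparison joined both genotypes (2 pools against 8 mice, with genotype in the model), and 16.6% of the 13855 genes tested rose (1.5-fold or more with an adjusted p below 0.05 in edgeR's quasi-likelihood test). The median log2 change of the 10 genes was 3.06 and that of all genes −0.01. Fosl1 passed the filter on low counts only through its pools at 12, 24 and 48 h, so its rise was bound to be found, and Fosb did not pass the filter at 0 h alone. The median of the other 8 was 2.52. In bulk tissue, fewer cells of a type and less RNA per cell cannot be told apart.

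Among the Fos genes, Fos, the founding member (chr12:85473890-85477274), had 17.1, 11.0, 8.08 and 26.3 CPM in the 4 control mice at 0 h and 158, 25.4, 22.2, 47.4 and 11.2 CPM in the control pools at 12, 24, 48, 72 and 96 h. In LKO it had 16.8, 3.43, 4.09 and 11.1 CPM at 0 h and 73.8, 14.8, 6.05, 16.8 and 2.36 CPM in the pools in the same order. Both genotypes thus had their highest level at 12 h and a second, lower one at 72 h, and each LKO pool lay below its control pool. The rise at 12 h was 3.23 on the log2 scale (SE 0.45, adjusted p = 0.00018).

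Fosb, a further immediate-early gene (chr7:19302696-19310118), went from 0.286 to 2.46 CPM in the control mice to 248 CPM in the control pool at 12 h, and then had 6.06, 1.11, 1.83 and 1.70 CPM at 24 to 96 h. LKO mice had 0.230 to 1.38 CPM, and the LKO pools had 40.3, 1.55, 0.622, 2.06 and 0.274 CPM. Its 12 h peak was 41.0 times the next highest control pool, the sharpest of the 10 genes in control. The log2 change at 12 h was 7.00 (SE 0.51, adjusted p = 9.83e-07).

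Fosl1, which encodes Fra-1 and is itself known as a target of AP-1, was nearly silent at 0 h, with 1 read in all 8 mice of the LKO cohort. The control pools had 295, 108, 53, 2 and 0 reads at 12 to 96 h and the LKO pools 28, 43, 2, 0 and 0 reads. It was therefore seen from 12 to 48 h in control and chiefly at 12 and 24 h in LKO, where the level at 24 h was 1.36 times that at 12 h. Over both genotypes the 12 h level was 1269 times that at 0 h, with a counting interval of 226 to 50270, a ratio that rests on the single read at 0 h. With the stranded columns described at the end, which held 1884 reads at 12 h and 32 at 0 h, the ratio was 231 (163 to 339). The fitted log2 change of 9.09 (SE 0.67) depends on the prior count.

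Fosl2, which encodes Fra-2 (chr5:32136472-32157840), had the smallest estimate at 12 h among the Fos genes. It had 9.62, 19.0, 14.2 and 10.6 CPM in control mice and 69.4, 22.2, 22.8, 11.2 and 8.71 CPM in the control pools. In LKO mice it had 9.16 to 10.7 CPM, and in the LKO pools 32.3, 13.9, 8.43, 7.56 and 6.14 CPM. The 12 h change was 2.08 on the log2 scale (SE 0.22, adjusted p = 3.46e-06).

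**Figure D1:**
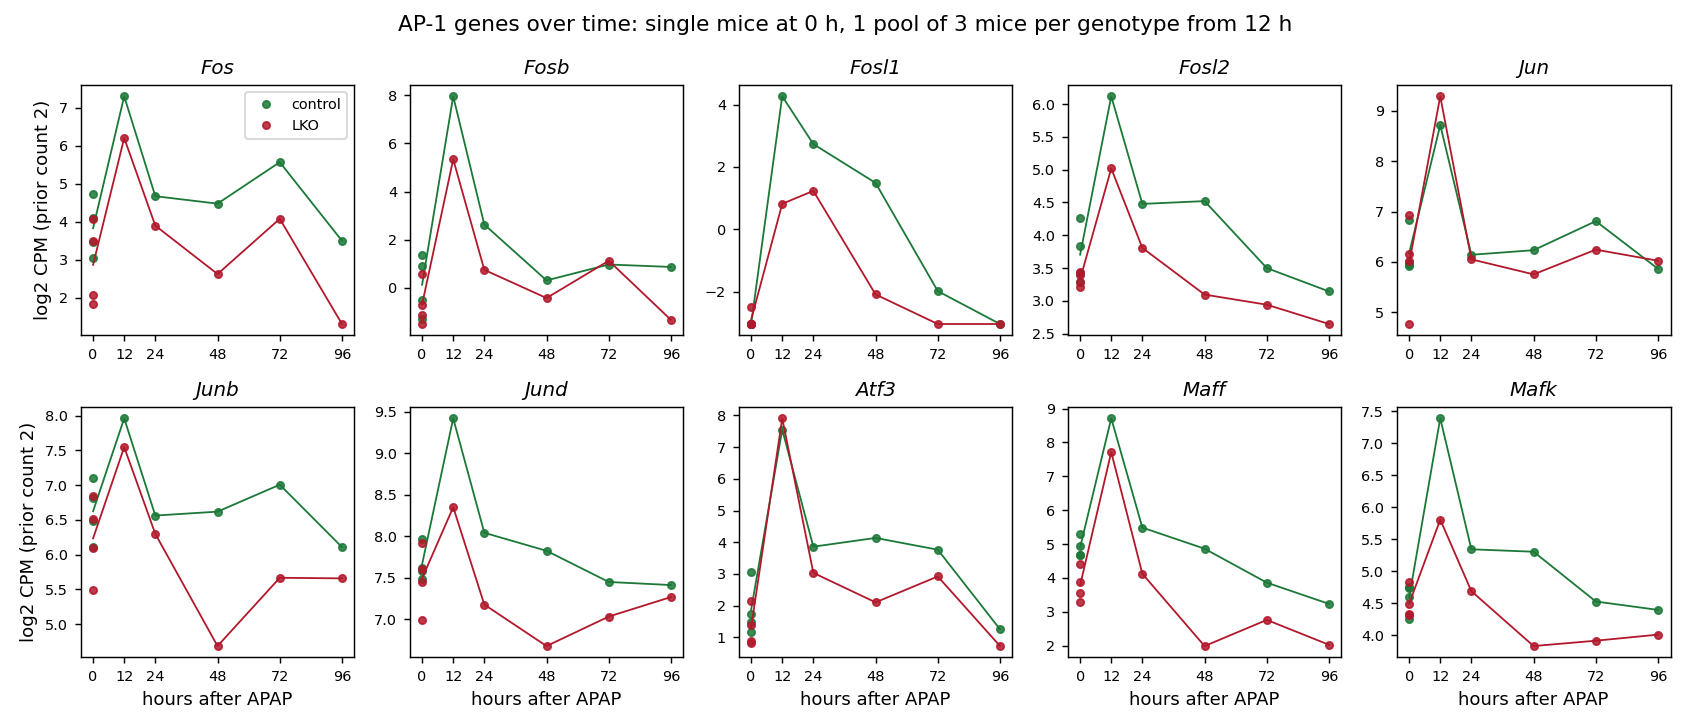
Level of each AP-1 gene (log2 CPM with a prior count of 2) against hours after APAP, for control (green) and LKO (red). Points at 0 h are single mice, later points are 1 pool of 3 mice each, and lines join group means. Every gene has its highest control value at 12 h, and the Jun and Atf3 points at 12 h are higher in LKO.

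Jun, the main partner of Fos proteins and a target of JNK (chr4:95049036-95052222), differed from most of the genes in the order of the genotypes at 12 h. In control mice it had 114, 60.0, 62.2 and 63.3 CPM, and in the control pools 422, 70.6, 75.2, 112 and 58.1 CPM. LKO mice had 123, 27.1, 71.2 and 64.6 CPM, and the LKO pools 627, 66.2, 53.8, 75.7 and 65.0 CPM. The LKO pool at 12 h was thus the higher one, by 1.48-fold, and by 24 h both pools lay within the range of the mice at 0 h. The change at 12 h over both genotypes was 2.88 on the log2 scale (SE 0.33, adjusted p = 2.71e-05).

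Junb and Jund, the Jun proteins known for weaker activation and, for Jund, for expression in resting cells, had high levels at 0 h and the smallest estimates at 12 h. They lie on one chromosome, Junb at chr8:84976909-84978748 and Jund at chr8:70697739-70700616. Junb had 68.5 to 137 CPM in control mice and 44.6 to 115 CPM in LKO mice, and at 12 h 249 CPM in the control and 187 CPM in the LKO pool. In the later control pools Junb had 94.3, 98.0, 128 and 68.8 CPM, and in the LKO pools 78.5, 25.6, 50.6 and 50.3 CPM. The LKO pool at 48 h lay below all 4 LKO mice at 0 h, whereas the control pool lay among its mice. Jund had 178 to 250 CPM in control mice and 684, 263, 226, 174 and 170 CPM in the control pools. Its LKO values were 127 to 242 CPM in mice and 326, 144, 102, 131 and 154 CPM in pools. The log2 changes at 12 h were 1.29 for Junb (SE 0.33, adjusted p = 0.0071) and 1.34 for Jund (SE 0.23, adjusted p = 0.00032).

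Atf3, the stress-induced member (chr1:191170296-191183333), rose from 8.20, 2.15, 3.20 and 2.71 CPM in control mice to 188 CPM at 12 h, and had 14.4, 17.5, 13.5 and 2.27 CPM in the later control pools. LKO mice had 4.27, 1.63, 1.73 and 2.53 CPM, and the LKO pools 240, 8.08, 4.18, 7.46 and 1.54 CPM. The 12 h value was higher in LKO, by 1.28-fold, as for Jun, and each later Atf3 value was lower in LKO. The 12 h change was 6.18 on the log2 scale (SE 0.40, adjusted p = 2.44e-07), or 72.3-fold.

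Of the small Maf genes, Maff (chr15:79346621-79359078) had the larger estimate at 12 h, with 419, 44.7, 29.0, 14.4 and 9.28 CPM in the control pools after 25.6, 39.2, 25.7 and 30.6 CPM in control mice. In LKO, mice had 21.1, 9.64, 11.5 and 14.7 CPM and pools 210, 17.3, 3.85, 6.65 and 3.95 CPM. Maff was the one gene of the 10 that then fell below its level at 0 h in the test. The log2 change was 3.88 at 12 h (SE 0.26, adjusted p = 7.85e-08), −1.09 at 72 h (SE 0.34, adjusted p = 0.0346) and −1.80 at 96 h (SE 0.36, adjusted p = 0.0415). With library size scaling neither fall passed (adjusted p = 0.0851 at 72 h and 0.0635 at 96 h). Without the control pool at 72 h, the 72 h value no longer passed (adjusted p = 0.366), nor did it without the LKO pool at 72 h (0.125) or control replicate 2 at 0 h (0.0538). The 96 h call was kept in 7 of 18 fits that left out 1 library, and the highest adjusted p, 0.499, came without the control pool at 96 h. Mafk (chr5:139791536-139802653) had 19.0 to 26.9 CPM in control mice and 168, 40.5, 39.4, 22.9 and 20.9 CPM in the control pools. LKO mice had 19.7 to 28.2 CPM of Mafk and the LKO pools 55.9, 25.6, 14.1, 14.9 and 16.0 CPM. The log2 change of Mafk at 12 h was 2.16 (SE 0.25, adjusted p = 1.14e-05).

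Without the control pool at 12 h, 9 of the 10 genes still passed, and the median log2 change of the 8 that passed the filter at 0 h was 2.50, while 8.03% of all genes rose and 7.02% fell. Junb then had a log2 change of 1.40 and an adjusted p of 0.0552, and without the LKO pool at 12 h 1.16 and 0.0849. The lowest of the other 9 values without the control pool was 0.96 for Jund (adjusted p = 0.0419).

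Fewer of the genes passed at the later times. At 24 h, 3 of 10 genes were higher (13.8% of all genes), namely Fosl1, Fosb (log2 change 1.87, adjusted p = 0.0334) and Atf3 (1.74, adjusted p = 0.00867). Fosl1 and Fosb did not pass the filter at 0 h alone, and of the 8 genes that did, 1 was higher. At 48 h Fosl1 and Atf3 (1.57, adjusted p = 0.0243) were higher, against 9.78% of all genes, and at 72 h Atf3 (1.64, adjusted p = 0.0178), against 10.9%. Of the same 8 genes, 1 was higher at 48 h and 1 at 72 h. No gene of the 10 was higher at 96 h, where 0.332% of all genes were. Called decreases were Maff at 72 and 96 h, where 5.80% and 0.123% of all genes fell, and none of the 10 was called lower at 12, 24 or 48 h, where 14.2%, 11.5% and 6.45% of all genes fell. Single libraries or settings decided several of these calls. Fosb at 24 h did not pass with DESeq2 (adjusted p = 0.0515) or a minimum of 1 count (0.0576). At 24 h Fosb and Atf3 did not pass without the control pool (adjusted p = 0.338 and 0.0992) or without the LKO pool (0.115 and 0.0839), nor did Fosb without LKO replicate 3 at 0 h (0.0504). At 48 h neither Fosl1 nor Atf3 passed without the control pool (0.138 and 0.611), and the log2 change of Atf3 was then 0.65. At 72 h Atf3 did not pass without the control pool (0.264) or the LKO pool (0.0852), and Fos passed as higher without LKO replicate 1 at 0 h (1.54, adjusted p = 0.0195). Maff passed as lower at 48 h without the control pool at 48 h (−1.87, adjusted p = 0.00903). Fosl2 passed as higher at 24 h without control replicate 2 at 0 h (0.66, adjusted p = 0.0452), without the control pool at 48 h (0.60, 0.0438) and without the LKO pool at 48 h (0.60, 0.047). The 5 comparisons share the 8 mice at 0 h, so they are not independent of one another.

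**Figure D2:**
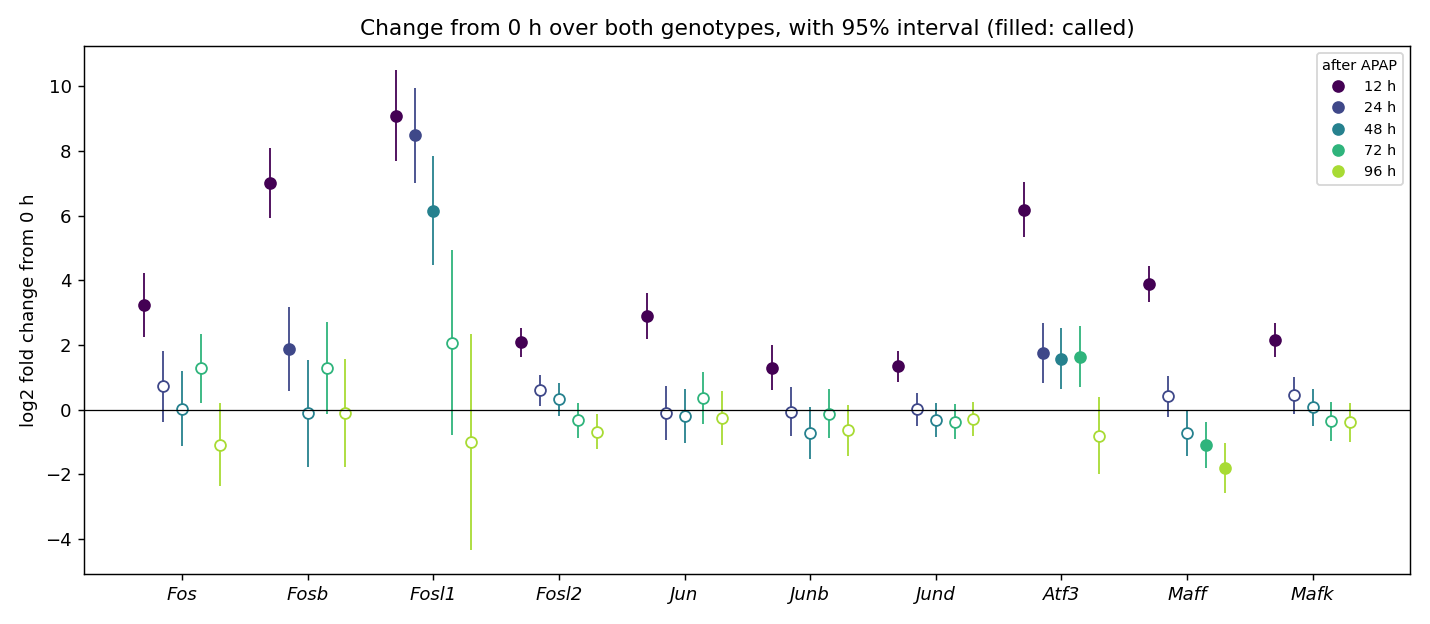
Log2 fold change of each AP-1 gene from 0 h at 12 to 96 h after APAP, over both genotypes, with 95% intervals from edgeR. Filled points passed the test. All 10 points at 12 h are filled and above 0, and from 24 h most intervals include 0.

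To compare LKO with control after APAP, the 5 pairs of pools were tested together, with the time point as a block, so that the 5 times take the place of replicates. All 10 genes had a negative LKO coefficient, and 3 of them, Fos, Fosl1 and Maff, passed the test, where 0.315% of the 13659 genes tested were lower and 0.256% higher. Fos had a log2 difference of −1.48 (SE 0.21, 95% interval −1.94 to −1.03, adjusted p = 0.0232). For Maff it was −1.52 (SE 0.26, −2.09 to −0.94, adjusted p = 0.0414) and for Fosl1 −2.94 (SE 0.52, −4.10 to −1.79, adjusted p = 0.0426). The median over the 10 genes was −0.93, against −0.02 over all genes tested.

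Those that did not pass had differences of −1.68 for Fosb (adjusted p = 0.103), −0.89 for Fosl2 (0.056), −0.97 for Mafk (0.056), −0.75 for Jund (0.0851), −0.89 for Junb (0.115) and −0.79 for Atf3 (0.216). Only the interval of Jun included 0 (−0.10, 95% interval −0.51 to 0.30, adjusted p = 0.816). These calls moved with the setting. DESeq2 called 8 of the 10 lower, against 2.78% of all genes, and without the time block none of the 10 passed, as was the case for all genes (0%). A fit of all 24 libraries called 4 lower (Fosl2, Jund, Maff and Mafk), against 3.14% of all genes, and there Fos (adjusted p = 0.0908) and Fosl1, whose SE of 6792 leaves no usable estimate, did not pass. Library size scaling kept Fos alone (0.0879% of all genes lower), with adjusted p-values of 0.0546 for Fosl1 and 0.0708 for Maff, a minimum of 1 count called 5 (0.57%), adding Fosl2 and Mafk, and the sum of the stranded columns, described at the end, kept Fos and Maff (0.237%) but not Fosl1 (adjusted p = 0.0777). Leaving out the pools of 1 time gave between 0 and 6 calls. The 6, among them Fosl2, Jund and Mafk, came without the 96 h pools, where 0.987% of all genes were lower. There were 0 without the 12 h pools (0.0296% of all genes), where Fos had −1.57 (adjusted p = 0.0577), Maff −1.65 (0.0774) and Fosl1 −2.59 (0.155). Without the 48 h pools Fos (0.0829) and Fosl1 (0.135) did not pass, without the 72 h pools Fos (0.0687), Fosl1 (0.111) and Maff (0.113) did not, and without the 24 h pools Maff (0.102) did not. Fosb was called without the 72 h pools (−2.15, adjusted p = 0.0222). In the fits without the 24, 48 and 72 h pools, 0.125%, 0.0519% and 0.0446% of all genes were lower.

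Time by time, 44 of 48 LKO values lay below the control value and 4 above it. Of all genes, 50.6%, 47.8%, 49.9%, 48.3% and 48.6% were lower in LKO at the 5 times in order. Fosl1 at 72 and 96 h, with fewer than 3 reads in either pool, was not compared. The values above control were Jun and Atf3 at 12 h, Fosb at 72 h (2.06 against 1.83 CPM) and Jun at 96 h (65.0 against 58.1 CPM). Fos, Fosl2, Junb, Jund, Maff and Mafk were lower at all 5 times, 6 of 10 genes against 7.86% of all genes. With library size scaling Jund turned higher in LKO at 96 h (log2 difference 0.067), which left 5 genes, against 4.58% of all genes. At the 5 times in order, 6, 3, 8, 3 and 3 genes were at least 2-fold lower, of 10 genes at 12 to 48 h and 9 at 72 and 96 h. Over all genes the shares were 11.8%, 4.79%, 9.57%, 6.61% and 4.44%. With library size scaling the count at 12 h fell to 3, against 9.67% of all genes, as Fos, Fosl2 and Jund then lay just short of 2-fold, and the counts at the later times were the same. No compared value was at least 2-fold higher in LKO, while 1237, 429, 956, 903 and 876 of all 13659 genes were at the 5 times in order.

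At 12 h the largest differences were in Fosl1 (log2 difference −3.45), Fosb (−2.62) and Mafk (−1.58), on the log2 CPM scale with a prior count of 2. At 48 h Maff (−2.87) and Atf3 (−2.03) were followed by Junb (−1.93) and Fos (−1.85). Fosl1 had only 2 reads in the LKO pool at 48 h, against 53 in control, a ratio of control to LKO of 23.7 with a counting interval of 6.25 to 201. At 12 h this ratio was 11.7 (7.91 to 17.9). Over the 5 times in order, the median of the genes compared was −1.08, −0.80, −1.67, −0.61 and −0.50, while that of all genes lay between −0.01 and 0.02. The median was thus furthest from 0 at 48 h.

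**Figure D3:**
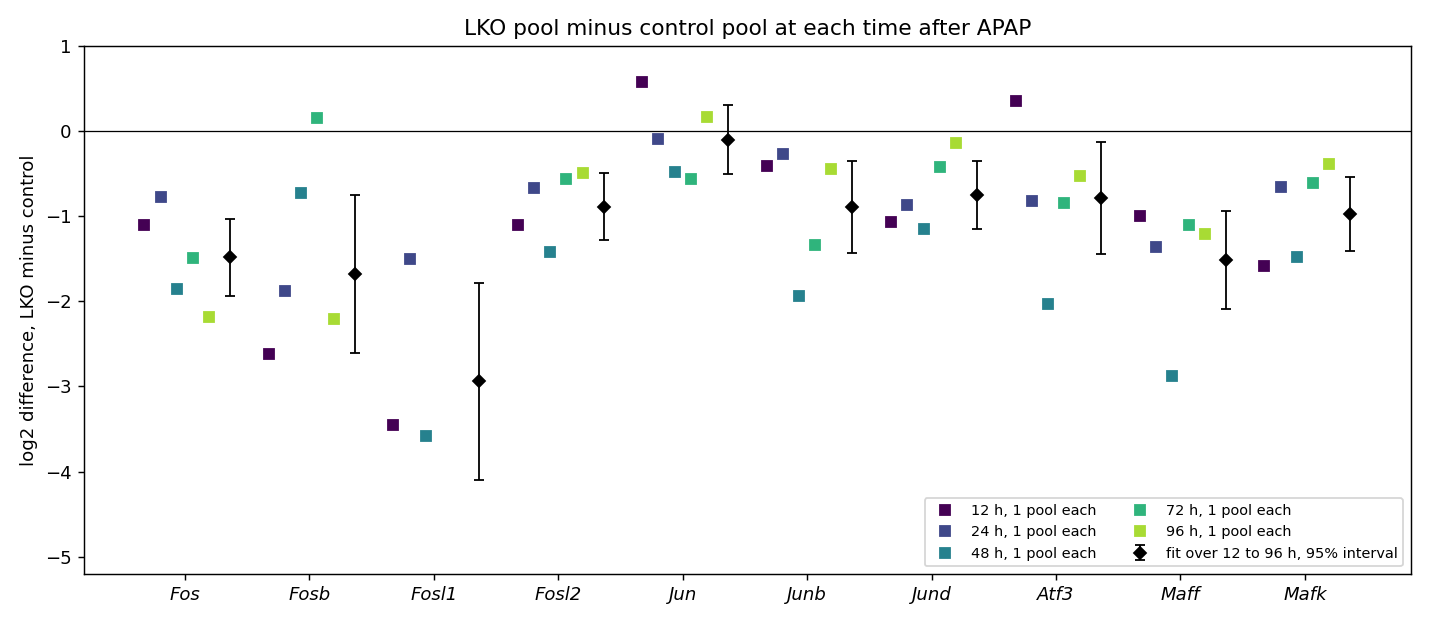
Log2 difference between the LKO and the control pool for each AP-1 gene at 12, 24, 48, 72 and 96 h (squares, 1 pool of 3 mice per genotype, no error), and the estimate over the 5 times with its 95% interval (diamonds). Nearly all squares lie below 0, apart from Jun and Atf3 at 12 h, Fosb at 72 h and Jun at 96 h above it. Fosl1 has no square at 72 and 96 h, where both pools had fewer than 3 reads.

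Markers of other cell types differed between these pools as well. The summed level of 4 cholangiocyte markers was 131, 32.8, 25.0, 11.7 and 6.45 CPM in the control pools at 12 to 96 h and 22.1, 14.8, 12.8, 6.89 and 4.99 CPM in the LKO pools. Most of the 12 h value came from Sox9 (122 against 19.6 CPM), while Epcam had 5.13 and 0.586 CPM, Krt19 2.01 and 1.88 CPM and Krt7 1.43 and 0 CPM. All 4 were lower in LKO at 12 and 48 h, and 2, 3 and 3 of them at 24, 72 and 96 h. The 6 macrophage markers summed to 269, 178, 239, 562 and 377 CPM in the control pools and to 134, 157, 250, 560 and 157 CPM in the LKO pools. They did not move together, as 4, 2, 2, 3 and 6 of the 6 were lower in LKO at the 5 times in order. At 48 h Cd14 was lower (49.4 against 3.96 CPM) and Clec4f higher in LKO (60.5 against 94.1 CPM). The 4 neutrophil markers found in the files, of 5, summed to 10.2, 10.7, 24.8, 19.4 and 5.88 CPM in control and 10.3, 27.4, 6.90, 3.49 and 1.32 CPM in LKO, with Mmp8 at 0 in the control pool at 96 h. Hepatocyte markers summed to 85820 to 124100 CPM in control pools and 59830 to 94790 CPM in LKO pools. Most of each sum came from Alb, and the sum was higher in LKO at 48 h. At the 5 times in order, 4, 3, 1, 3 and 4 of the 6 hepatocyte markers were lower in LKO. At these times 2, 2, 4, 3 and 2 of them were higher, and Cps1 was higher at all 5. Endothelial markers summed to 122 to 168 CPM in control pools and 120 to 179 CPM in LKO pools, stellate and fibroblast markers to 172 to 884 and 109 to 624 CPM, and lymphocyte markers to 0.780 to 4.39 and 1.502 to 5.15 CPM, with Cd3e and Ms4a1 at 0 in the control pool at 12 h and Ms4a1 at 0 in the control pools at 48 and 96 h. No gene of these lists passed the test between the genotypes. The part of these cell types in the AP-1 differences was not tested.

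Before APAP, single mice could be compared. Of the 8 AP-1 genes that passed the filter at 0 h (Fosb and Fosl1 did not), none was called between LKO and control, as was the case for all 12426 genes tested (0%). In edgeR 1 of the 8 genes and 334 of all genes had an unadjusted p under 0.05, and DESeq2 called 0 and 3. All 8 coefficients were negative, with a median of −0.38, against 0.00 over all genes. Between HKO and AAV control none of the 8 was called in edgeR, against 1.19% of 12397 genes, while 2 had an unadjusted p under 0.05. DESeq2 called 1 of them, against 2.67% of all genes. Here 4 of the 8 coefficients were positive and 4 negative, with a median of 0.09, against 0.01 over all genes.

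Maff had the smallest p of the AP-1 genes at 0 h in both cohorts. Its LKO mice (9.64 to 21.1 CPM) all lay below the control mice (25.6 to 39.2 CPM), with a log2 difference of −1.08 (SE 0.23, 95% interval −1.60 to −0.57, edgeR adjusted p = 0.999). Its HKO mice, with 7.99, 7.00 and 4.48 CPM, all lay below the AAV controls, with 11.6, 18.4 and 10.5 CPM, and the difference was −1.05 (SE 0.27, −1.65 to −0.45, edgeR adjusted p = 0.108). Neither passed after adjustment over all genes in edgeR, but in HKO DESeq2 (adjusted p = 0.00913), the open filter of 1 count (0.0484) and the fit with the replicate number as a block (0.0201) called it. Values without overlap between the groups, in either direction, were found for 1.75% of all genes in the LKO cohort and for 18% in the HKO cohort, so that the separation in HKO is common among genes. The only other AP-1 gene without overlap was Jund in the HKO cohort, with 204, 192 and 172 CPM in HKO against 157, 138 and 141 CPM in AAV control (log2 difference 0.38, SE 0.10, edgeR adjusted p = 0.113).

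For the remaining genes the groups overlapped at 0 h. Junb in HKO had 195, 53.9 and 33.2 CPM, and its log2 difference, 1.196 (SE 0.79, adjusted p = 0.651), had a 95% interval of −0.91 to 3.31. It rested on replicate 1, without which it was 0.091. Fos had a difference of −0.82 in LKO (95% interval −2.13 to 0.48) and of −0.65 in HKO (−1.98 to 0.67), wide intervals that include both no change and a 2-fold decrease. Intervals of Jun were −1.03 to 0.89 in LKO and −0.57 to 1.27 in HKO, and those of Mafk −0.45 to 0.26 and −0.68 to 0.42.

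**Figure D4:**
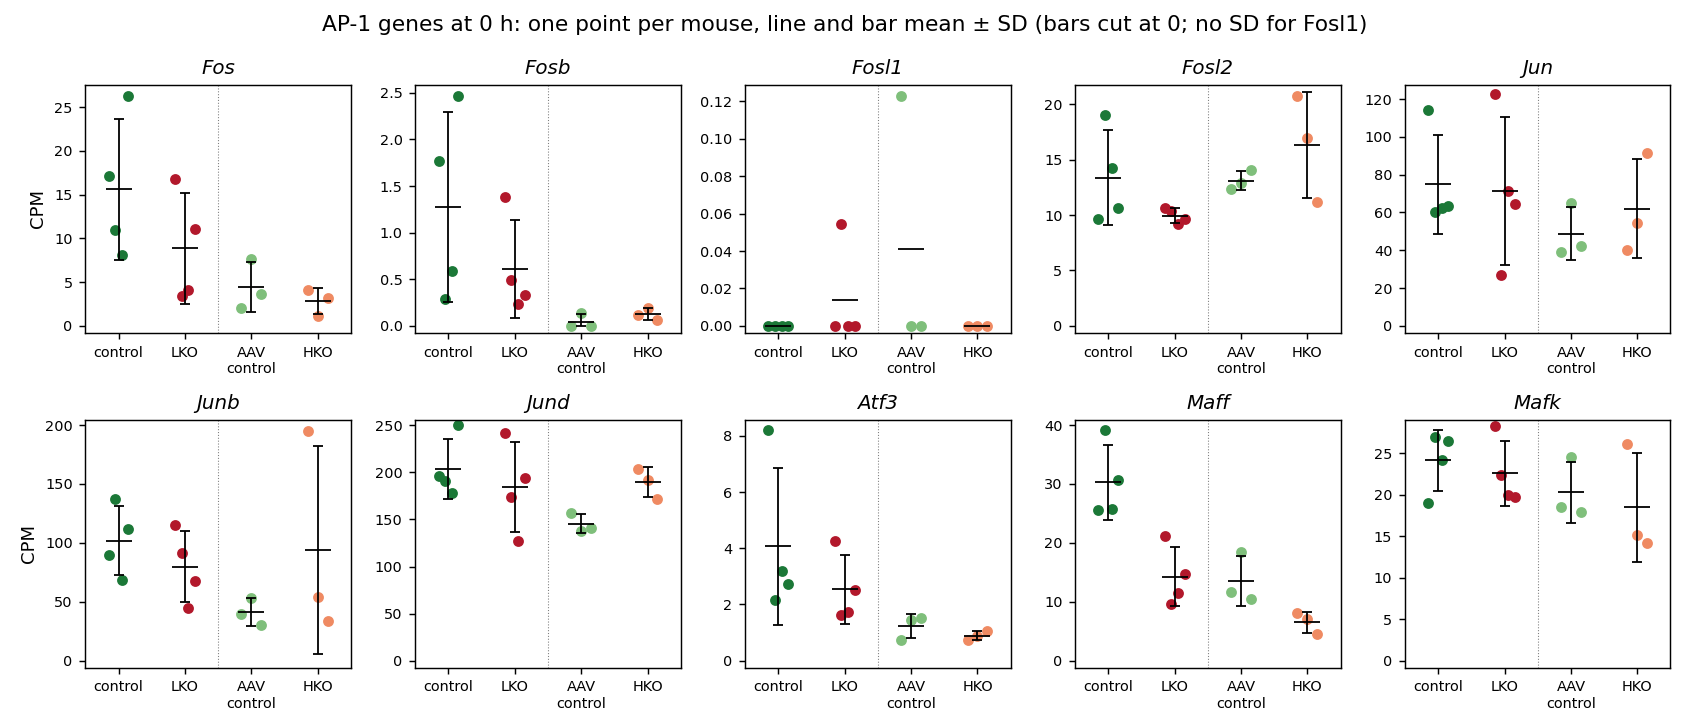
CPM of each AP-1 gene at 0 h in control, LKO, AAV control and HKO livers, with 1 point per mouse, the mean as a line and the SD as a bar (cut at 0, none for Fosl1). Each gene has its own axis, which includes 0. For Maff both knockout groups lie below their own controls, and for most genes the groups overlap.

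Effects were also compared directly. For none of 9 AP-1 genes was the LKO effect called different from the HKO effect in edgeR (0% of 12945 genes; 2 of the 9 and 562 of all genes had an unadjusted p under 0.05, and DESeq2 called 0 and 21). The difference was −0.04 for Maff (95% interval −0.88 to 0.81), and the smallest p-values were those of Fosl2 (−0.74, −1.42 to −0.07, adjusted p = 1.00) and Jund (−0.53, −1.04 to −0.01, adjusted p = 1.00). For none of the 10 genes was the LKO effect over 12 to 96 h called different from that before APAP (0% of 13855 genes; 2 of the 10 and 1288 of all genes had an unadjusted p under 0.05, and DESeq2 called 0 and 39). Mafk had the smallest p here (−0.87, 95% interval −1.44 to −0.31, adjusted p = 0.411). For Maff the difference was −0.42 (−1.22 to 0.38), so the test did not separate its lower level after APAP from that before. The cohorts differ in the virus, in the age at deletion and in level. The AAV controls had 2.02 to 7.59 CPM of Fos and 0.736 to 1.52 CPM of Atf3, both below every control mouse of the LKO cohort, and the virus and the cohort cannot be told apart.

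Related genes were read from lists by function. Among 12 other immediate-early genes, 11 were tested after APAP and 10 of them, all but Egr2, passed the filter at 0 h alone. Of these 10, 8 rose at 12 h, against 16.6% of all genes, and none fell, with a median of 2.28, and 6 rose without the control pool at 12 h, against 8.03%. The smallest p-values were those of Egr1 (log2 change 4.47), Ier2 (2.20), Klf6 (3.88) and Myc (3.10). Over 12 to 96 h, 10 of the 11 had a negative LKO coefficient with a median of −1.05, against −0.02 over all genes. Btg2 (−1.75, SE 0.22, adjusted p = 0.0171), an antiproliferative gene, and Ier2 (−0.89, SE 0.16, adjusted p = 0.0414) passed, where 0.315% of all genes were lower. Klf4 (−1.85, adjusted p = 0.0582) and Myc (−0.81, 0.0804) did not. Without the time block no gene passed, and without the 12 h pools 0.0296% of all genes were lower. At 0 h Egr1, a zinc finger factor induced by the same signals as Fos, had 25.5, 36.3, 31.2 and 54.3 CPM in control and 8.88, 17.7, 10.2 and 15.1 CPM in LKO (log2 difference −1.497, SE 0.27, edgeR adjusted p = 0.999). In the HKO cohort its difference had the opposite sign, with 21.7, 23.5 and 15.5 CPM in AAV control and 35.7, 36.2 and 62.0 CPM in HKO (1.15, SE 0.26, edgeR adjusted p = 0.103). For Maff the differences of both knockout groups were negative.

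Of 20 genes known as AP-1 targets, 18 were tested after APAP, whereas 9 passed the filter on low counts at 0 h alone. A gene that enters the test through libraries in which it is high is likelier to be found changed. The counts against 0 h are therefore given for these 9. At 12 h 4 of the 9 rose (median 1.98), against 16.6% of all genes, and also 4 without the control pool at 12 h (median 1.06), against 8.03%. At 24 h 5 rose (1.26) and 1 fell, against 13.8% and 11.5% of all genes. At 48 h 5 rose (1.84), against 9.78%, and at 72 h 3 rose (1.11) and 1 fell, against 10.9% and 5.80%. Among all 18 the smallest p-values at 12 h were those of Areg (log2 change 6.69), Plaur (4.04), Mmp3 (6.85), a matrix metalloproteinase, and Krt18 (2.33), of which Areg and Mmp3 did not pass the filter at 0 h, so that their changes are given as a description. At 96 h none of the 18 passed. Over 12 to 96 h, 15 of the 18 had a negative LKO coefficient, with a median of −0.97, against −0.02 over all genes. All 18 are used here, also those that did not pass the filter at 0 h, so this is a description. In this test 0.315% of all genes were lower, and without the time block no gene passed. Areg, an EGF receptor ligand (−3.28, SE 0.47, adjusted p = 0.0247), and Plaur, the urokinase receptor (−1.97, SE 0.37, adjusted p = 0.0487), passed, and Hbegf, another EGF receptor ligand (−2.52, adjusted p = 0.0539), and Krt18 (−1.27, adjusted p = 0.0615) did not.

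Of 10 targets of small Maf and Nrf2 dimers, 9 passed the filter at 0 h. At 12 h 6 of these 9 rose, against 16.6% of all genes, and none fell, with a median of 2.28, and without the control pool at 12 h 5 rose, against 8.03%, with a median of 1.21. Among all 10, the smallest p-values were those of Srxn1 (log2 change 4.68), Slc7a11 (7.90), Hmox1 (4.39) and Txnrd1 (2.28), of which Slc7a11 did not pass the filter at 0 h. Between the genotypes over 12 to 96 h, 6 coefficients were positive and 4 negative, with a median of 0.12. Hmox1, which degrades heme, passed as lower (−1.21, SE 0.22, adjusted p = 0.0414), where 0.315% of all genes were lower. Slc7a11, a cystine transporter, had 0.97 (adjusted p = 0.169), Srxn1 −0.40 (0.303) and Nqo1 0.53 (0.319). Of the JNK kinases, scaffolds and phosphatases, 14 of 15 passed the filter at 0 h, and of these 8 rose at 12 h with the control pool, against 16.6% of all genes, and 3 without it, against 8.03%, while the median went from 0.72 to 0.34. The smallest p-values, with the pool, were those of Dusp10 (3.32, SE 0.36), a phosphatase that inactivates JNK, the scaffold gene Mapk8ip3 (1.02) and the kinase genes Map2k7 (0.95) and Map3k1 (1.08). None of these 15 passed between the genotypes over 12 to 96 h, where the smallest p-values were those of Dusp10 (−1.03, adjusted p = 0.12), Dusp1 (−0.77, 0.15), Map3k8 (−1.35, 0.184) and Map3k5 (−0.47, 0.184). Of 15 other bZIP factors, 12 passed the filter at 0 h, and of these 2 rose and 3 fell at 12 h, with a median of 0.12, against 16.6% and 14.2% of all genes, and without the control pool at 12 h none rose and 2 fell. Among those called with the pool were Bach2 (−1.84) and Maf (−0.64) lower and Bach1 (1.29) and Atf4 (1.22) higher. None of them passed between the genotypes over 12 to 96 h (median 0.06), and the smallest p-values were those of Atf4 (−0.68, adjusted p = 0.10), Atf7 (0.45, 0.209) and Cebpb (−0.46, 0.22). At 0 h no gene of the 5 lists passed in either cohort.

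The profile of each gene over the 12 groups of the LKO cohort was also set against those of all genes kept, by Pearson's r of mean log2 CPM, as a description over points of which 10 are single pools. Mafk was among the 2 genes most like Jund (r = 0.97), and Egr1 among those most like Atf3 (r = 0.97, with Phf24 at 0.98). Fosl1 was most like Rrp1b and Nle1 (0.99 each), Fosl2 like Git1 and Pprc1 (both 0.98) and Mafk like Rasip1 (0.98). Maff was nearest to Slc35a4 (0.98) and Snx17 (0.97), Jun to Pim1 and Gucy2g (both 0.96), Fos to Spon1 (0.96) and Gfpt2 (0.95), Fosb to Fam102a (0.96) and Csf2rb2 (0.94), and Junb to Zfp651 (0.94) and Grb2 (0.93). Jund was the one gene of the 10 with another of them among its nearest 2.

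Counts of Fosl1 depend on how reads shared with a gene on the other strand are counted. The forward and reverse columns had near equal totals, 6470648 to 9998041 and 6445296 to 9929216 reads per library. On GRCm38 it lies at chr19:5447698-5455938 on the forward strand, and its exons overlap those of Ccdc85b on the opposite strand. The counts used disregard strand, so reads in the shared bases count for neither gene. The sum of both stranded columns of the same files, where a shared read counts once for each gene, held 1752, 908 and 353 Fosl1 reads in the control pools at 12, 24 and 48 h, against 295, 108 and 53. In the LKO pools it held 132, 303 and 7 reads, against 28, 43 and 2. With either count the control pools were higher at each of these times and LKO was higher at 24 h than at 12 h. Reads of Ccdc85b on the shared bases are included in the sum, although at 0 h the sum was at most 7 reads in any library. Outside the shared bases, Ccdc85b had 105 to 277 reads in the control mice at 0 h. At 12 h it had 749 reads in the control pool and 153 in the LKO pool. How many reads of the sum belong to Ccdc85b was not tested. For the other 9 genes the sum and the count differed by at most 5 reads in any library, also for Junb and Mafk, whose exons overlap those of Prdx2 and Tmem184a. With the sum, Fosl1 had a log2 difference of −3.27 between LKO and control over 12 to 96 h (SE 0.61) and an adjusted p of 0.0777, so the call was lost, and a change of 7.31 at 12 h (SE 0.74, adjusted p = 1.77e-05).

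**Figure D5:**
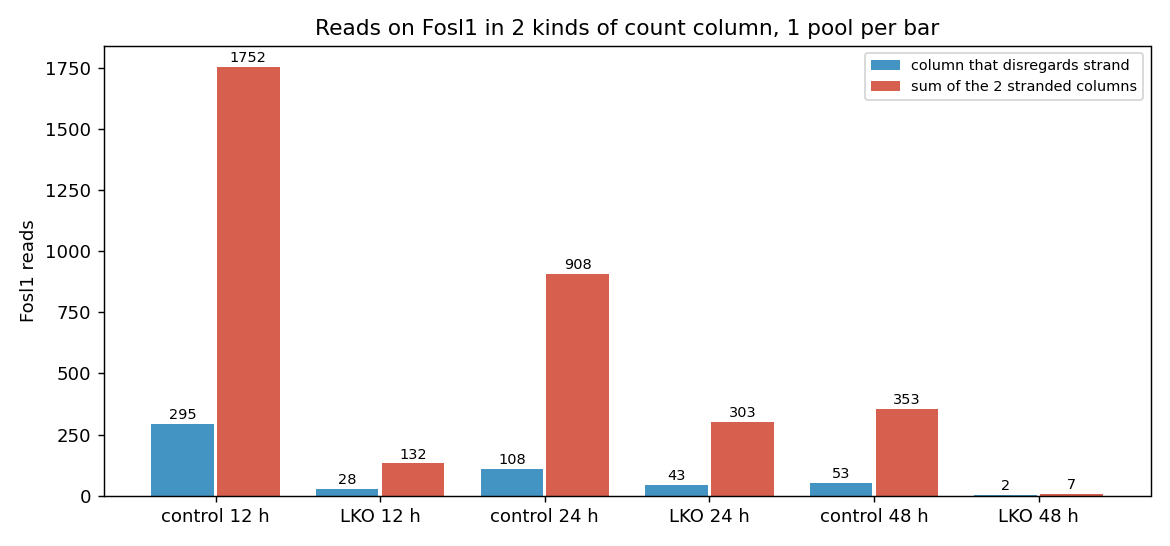
Reads on Fosl1 in the control and LKO pools at 12, 24 and 48 h, from the column that disregards strand (blue) and from the sum of the 2 stranded columns (red), with 1 pool of 3 mice per pair of bars. The sum is higher in each pool, and both counts are higher in control at each time.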

How the data were processed

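Whole-liver RNA of 14 single mice at 0 h and of 10 pools of 3 mice at 12–96 h after APAP was sequenced. After trimming with Trimmomatic and alignment to mm10 by STAR, both named in the study's methods, the authors deposited STAR's read counts per gene. Each file has 3 count columns, of which the first, counted without regard to strand, was analyzed, without the 4 entries that name no gene (unmapped reads, 2.63 to 20.6%, multimapping, 4.69 to 8.06%, no feature, 7.29 to 14.7%, and ambiguous, 1.51 to 2.01%). The sum of the remaining, stranded columns was an alternative chosen after seeing the data. The annotation version is not given in the sources used here.

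Counts were filtered with filterByExpr, scaled by TMM and tested with the quasi-likelihood F-test of edgeR 4.0.16 (R 4.3.3, limma 3.58.1), with Benjamini-Hochberg adjustment over all genes tested. Tests were 2-sided. Calls required 1.5-fold or more with an adjusted p below 0.05. The study's methods name DESeq2, which was run (1.42.0) as an alternative. RLE scaling, library size scaling, a minimum of 1 count, other blocks and samples, and leaving out each library were tried as well. CPM used TMM factors over 24 libraries, log2 CPM a prior count of 2, and lengths the GENCODE vM21 exons on GRCm38. Levels under 3 reads were treated as not detected, a limit of counting error only. At 0 h each library is 1 mouse.

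The members and lists were chosen with earlier results of these data known. Named were all 10 genes in every comparison, Egr1 beside the values at 0 h, the 2 genes most like each, E2f7, E2f8, and from each list up to 4 genes with the smallest p. Some genes that this rule names are not reported here. Markers named beside the pools, such as Sox9, Cd14 and Clec4f, were chosen after their values were seen. On simulated counts with known changes, edgeR found 54% of 2-fold and 85% of 4-fold changes between LKO and control over 12–96 h (13659 genes). At 12 h against 0 h it found 31% and 78% (13855 genes). False calls were 12 of 151 and 7 of 116 in these comparisons. At 0 h it found 52% and 91% in LKO, with 6 of 149 calls false. In HKO at 0 h it found 68% and 98%, with 20 of 186 calls false. These shares hold only for the changes as simulated.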

Additional observations from a re-analysis of the deposited data

Results flagged for a closer look

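In a group of 4 mice, a value was marked where its gap to the next exceeded 0.829 of the range, which chance does in about 1 of 20 groups. Of 19 such groups of AP-1 genes at 0 h, 2 were marked. Jun had 114 CPM in control replicate 1, against 60.0 to 63.3 CPM in the other control mice. Fosl1 had 0.0544 CPM, a single read, in LKO replicate 2 and none in the other LKO mice.

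Egr1 moved in opposite directions in the knockout groups at 0 h, with a log2 difference of −1.497 in LKO and 1.15 in HKO. The knockout mice did not overlap with the controls in either cohort. Such separation, in either direction, was found for 1.75% of all genes in the LKO cohort and for 18% in the HKO cohort. Neither of the 2 differences passed after adjustment over all genes in edgeR. The difference between these effects was −2.65 (SE 0.42), with an adjusted p of 0.13 over all genes in edgeR, so it did not pass.

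The stranded columns, which the main comparisons do not use, held 1752 reads on Fosl1 in the control pool at 12 h. Their sum was at most 6 reads in the control mice at 0 h.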

How the results depend on the processing

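Counts below are of AP-1 genes called, out of those tested. Between HKO and control at 0 h the count was 0, and 1 (Maff) with DESeq2, 1 with a minimum of 1 count and 1 with the replicate number as a block. For LKO against control over 12 to 96 h it was 3, and 8 with DESeq2, 5 with a minimum of 1 count, 1 with library size scaling, 4 in a single fit of 24 libraries and 0 without the time block. At 24 h it was 3, and 2 with DESeq2 and with a minimum of 1 count, both without Fosb, and 4 with library size scaling, which added Fosl2. With library size scaling it was 1 in place of 2 at 72 h and 0 in place of 1 at 96 h, both by the loss of Maff. The causes were not tested. Leaving out 1 library, or the pools of 1 time between the genotypes, gave 0 to 6 calls over 12 to 96 h, 9 to 10 at 12 h, 1 to 4 at 24 h, 1 to 2 at 48 h, 0 to 3 at 72 h and 0 to 1 at 96 h, and 0 in each fit for both comparisons at 0 h and both differences between effects. Of the single-gene values, 82 turned their direction, 46 were no longer called, 23 became called and 1715 kept both direction and call.

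The values that turned belonged to genes not called in that comparison. With library size scaling the log2 difference turned to 0.064 for Jun and 0.045 for Mafk in LKO at 0 h, 0.027 for Maff between the LKO and HKO effects, 0.030 for Jun and 0.069 for Junb at 24 h, and 0.11 for Fosb and 0.019 for Jun at 48 h. Without the time block Jun turned to 0.25 and Atf3 to 0.13 over 12 to 96 h, and with the stranded sum Jund turned to −0.0024 at 24 h. Leaving out 1 library turned values on either side of 0, with a range in LKO at 0 h of −0.47 to 0.20 for Jun and −0.30 to 0.0035 for Jund, in HKO of −0.040 to 0.61 for Jun and −0.46 to 0.023 for Mafk, and over 12 to 96 h of −0.25 to 0.022 for Jun. Between the LKO and HKO effects the range was −0.80 to 0.199 for Fos, −0.60 to 0.37 for Atf3, −0.32 to 0.14 for Maff and −0.12 to 0.37 for Mafk, and between the LKO effects after and before APAP −0.99 to 0.23 for Fosb, −0.297 to 0.38 for Jun and −0.69 to 0.29 for Atf3. It was −0.22 to 0.083 for Jun, −0.29 to 0.13 for Junb and −0.22 to 0.22 for Jund at 24 h. At 48 h it was −0.41 to 0.37 for Fos, −0.40 to 0.32 for Fosb, −0.17 to 0.69 for Fosl2, −0.43 to 0.020 for Jun, −0.74 to 0.021 for Jund and −0.52 to 0.51 for Mafk. It was −0.58 to 0.24 for Junb at 72 h, and −0.97 to 0.26 for Fosb and −1.96 to 0.81 for Fosl1 at 96 h.

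Replicate numbers did not pair the mice, as correlations of same-numbered mice were −0.38 to 0.22 between LKO and control and −0.03 to 0.20 between HKO and control. With the replicate block, calls over all genes in HKO went from 147 to 267 (Maff −1.05, adjusted p = 0.0201) and stayed at 0 in LKO.

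Over all genes, DESeq2 called 331 in HKO, and 608 over 12 to 96 h in place of 78, where library size scaling called 39, a minimum of 1 count 181, no time block 0, a single fit of 24 libraries 846, and leaving out pools 8 to 169. In HKO a minimum of 1 count called 226, a single fit of 24 libraries 23, and leaving out mice 71 to 296. At 96 h DESeq2 called 338 and library size scaling 35 in place of 63. Leaving out a library gave 2161 to 4464 calls at 12 h (4266), 1165 to 3690 at 24 h (3504), 529 to 2497 at 48 h (2249), 523 to 2513 at 72 h (2314) and 11 to 109 at 96 h. Library size scaling moved the median of all genes to 0.13 in LKO at 0 h, 0.14 at 24 h and 0.20 at 48 h, and its calls split 85 higher to 65 lower in HKO (60 to 87 with TMM), 27 to 12 over 12 to 96 h (35 to 43), 2505 to 1104 at 24 h (1915 to 1589), 2193 to 481 at 48 h (1355 to 894) and 1727 to 415 at 72 h (1510 to 804). The single fit of 24 libraries split HKO calls 15 to 8.

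Of the 48 pool values compared, 23 were at least 2-fold lower in LKO, 23 with a prior count of 0.5 and 20 with library size scaling, with the whole loss at 12 h, where 3 in place of 6 were. The same scaling moved the median of all genes between the pools to 0.12 at 12 h, −0.14 at 48 h and 0.22 at 96 h, and that of the AP-1 genes to −0.94, −1.81 and −0.29. Pools of 3 mice without replicates limit every value after APAP, and 3 or 4 mice per group limit those at 0 h.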
